A study of Mus musculus with 15 samples.

Results

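Small nucleolar RNAs (snoRNAs) were examined in MPC5, a cultured clonal line of mouse podocytes, which wrap the capillaries of the kidney glomerulus and form part of its filter. The genes were taken from the deposited expression table by name, Snora or Snord followed by a digit, and kept where their counts summed to at least 30 over the 3 libraries. Of 25012 genes in the table, 117 had such a name and 34 reached the minimum, 13 of 41 Snora genes (box H/ACA) and 21 of 76 Snord genes (box C/D). The counts that kept a gene are the same counts compared below, so the levels of the 34 genes are given as a description, without tests. The rule leans on the control: 23 of the 34 genes would have missed the minimum on the other 2 libraries alone.

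The series holds 15 samples of MPC5 in 3 conditions, all from 1 batch as labelled. They are wild-type cells in standard medium, cells transfected with sh-METTL3 virus in standard medium, and cells with that virus given 25 µmol/L glucose, as labelled, for 72 h. METTL3 is the catalytic subunit of the complex that writes N6-methyladenosine (m6A) into RNA. Each condition has 2 input samples, 2 m6A pull-down samples and 1 sample of no stated kind, and the expression table has 1 column per condition, named for that last sample. There were therefore no replicates, and every ratio below compares 2 libraries. No virus is named for the control, so an effect of the virus and one of the shRNA cannot be told apart, and no samples had glucose without the virus.

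The 3 libraries held 54282720, 53655982 and 52807701 counts. Mettl3 itself was not lower in the sh-METTL3-labelled libraries, with 989, 1028 and 1033 counts and ratios to the control of 1.05 (0.963 to 1.15) and 1.07 (0.983 to 1.17), so those libraries are named by their label. Of 10 podocyte markers 7 reached the minimum, with a summed level of 27.8, 76.8 and 57.0 FPKM, and the other 3 were not analysed here. Among the 7, Nphs1 and Wt1 were at least 2-fold lower in the sh-METTL3-labelled library (ratios of 0.417 and 0.0658), and Kirrel and Synpo were higher (5.33 and 7.35), as was Cd2ap. Tubular markers (3 of 5 at the minimum) summed to 45.9, 139 and 57.5 FPKM, and their part in the snoRNA values was not tested. Counts were compared as ratios of count shares, a gene's counts over the library's total, with 95% exact binomial (Clopper-Pearson) intervals in parentheses. These cover counting error only, not variation between cultures or library preparations. They may be too narrow even for counting error, since reads copied by PCR and not tagged by molecule are not independent. A gene was counted as lower or higher at a ratio of at most 0.5 or at least 2, with a count of 0 set to 3. Over the 17097 genes with at least 30 counts the median ratio to the control was 1.15 in the sh-METTL3-labelled library and 1.22 in the glucose library (labelled sh-METTL3 with glucose).

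snoRNAs are short nuclear RNAs that guide chemical modification of other RNAs, chiefly ribosomal RNA. Box C/D snoRNAs pair with a target and direct 2'-O-methylation by fibrillarin, while box H/ACA snoRNAs fold into hairpins and direct pseudouridylation by dyskerin. Most mammalian snoRNAs are cut out of introns of host genes, many of which encode ribosomal proteins or are noncoding RNAs of the Snhg type, and a few act in cleavage of the ribosomal RNA precursor. Mature snoRNAs carry no poly(A) tail. Per the labels' protocol, the RNA was selected on oligo(dT) before fragmentation and the libraries kept the strand, so reads here may come from mature snoRNAs or from unspliced host RNA, and the table cannot tell these apart.

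Sequences of 2 H/ACA genes could be read from RefSeq tables of mouse build GRCm38.p6, and both are shown because another annotated RNA or promoter lies on the same bases. As annotated with the deposited counts (chr15:98519716-98519853, minus strand, inside Kansl2), Snora34 begins with the mature microRNA miR-1291. The seed of that microRNA, bases 2 to 8, is in capitals in the first line. RefSeq places Snora34 at chr15:98519717-98519834, so the seed lies before its RefSeq start. The Snora34 line gives the first 92 of its 138 bases, the stretch shared with the Mir1291 hairpin, with the letters ANANNA, the form of box H, in capitals. They occur at 2 places on the transcribed strand, which do not overlap, and 67.9% of 92-base windows from all 32851 RefSeq promoters hold them too. Most of the first place lies before the RefSeq start of Snora34. The last line gives the first 53 of the 148 bases of Snora57 (chr19:8888538-8888685, minus strand), which overlap the promoter window before 1810009A15Rik on the other strand.
mmu-miR-1291: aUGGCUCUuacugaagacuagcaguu
Snora34: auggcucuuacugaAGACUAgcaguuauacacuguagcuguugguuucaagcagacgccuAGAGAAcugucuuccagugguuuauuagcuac
Snora57: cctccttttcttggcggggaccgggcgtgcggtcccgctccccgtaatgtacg

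Both classes had the largest summed share in the control, and box C/D was further below it in the sh-METTL3-labelled library than box H/ACA. The 13 H/ACA genes summed to 1242 counts in the control, 513 in the sh-METTL3-labelled library and 232 in the glucose library. Their ratio to the control was 0.418 (0.376 to 0.464) in the sh-METTL3-labelled library and 0.192 (0.166 to 0.221) in the glucose library. The 21 C/D genes summed to 2007, 332 and 273 counts. Their ratios were 0.167 (0.149 to 0.188) and 0.140 (0.123 to 0.159). Between the sh-METTL3-labelled libraries, with glucose over without, the H/ACA sum had a ratio of 0.460 (0.392 to 0.538) and the C/D sum one of 0.835 (0.709 to 0.984).

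Box C/D thus made up a different part of the snoRNA counts in each library. It held 61.8% (60.1 to 63.4) of the counts of the 34 genes in the control, 39.3% (36.0 to 42.7) in the sh-METTL3-labelled library and 54.1% (49.6 to 58.5) in the glucose library, and these counting intervals did not overlap. One gene weighs on the H/ACA side, since Snora31 held 54.3%, 54.6% and 37.9% of the H/ACA counts. Without it, the C/D part was 78.0%, 58.8% and 65.5%, in the same order of libraries, and the last 2 intervals (54.6 to 62.9 and 60.7 to 70.0) overlapped. The H/ACA ratio without Snora31 was 0.416 (0.355 to 0.485) in the sh-METTL3-labelled library and 0.261 (0.216 to 0.314) in the glucose library. For the glucose library over the sh-METTL3-labelled library it was 0.628 (0.507 to 0.776), so the value of 0.460 rests in part on that gene. On the C/D side Snord83b, with the most counts over the 3 libraries, held 13.6%, 10.5% and 11.0% of the C/D counts, while in the sh-METTL3-labelled library Snord87 had more, 47 of 332. Without Snord87 the C/D ratios to the control were 0.147 (0.129 to 0.166) and 0.136 (0.119 to 0.155). For the glucose library over the sh-METTL3-labelled library the ratio without it was 0.927 (0.780 to 1.10), an interval that held 1, so the C/D value of 0.835 below 1 rests on that gene.

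**Figure D1:**
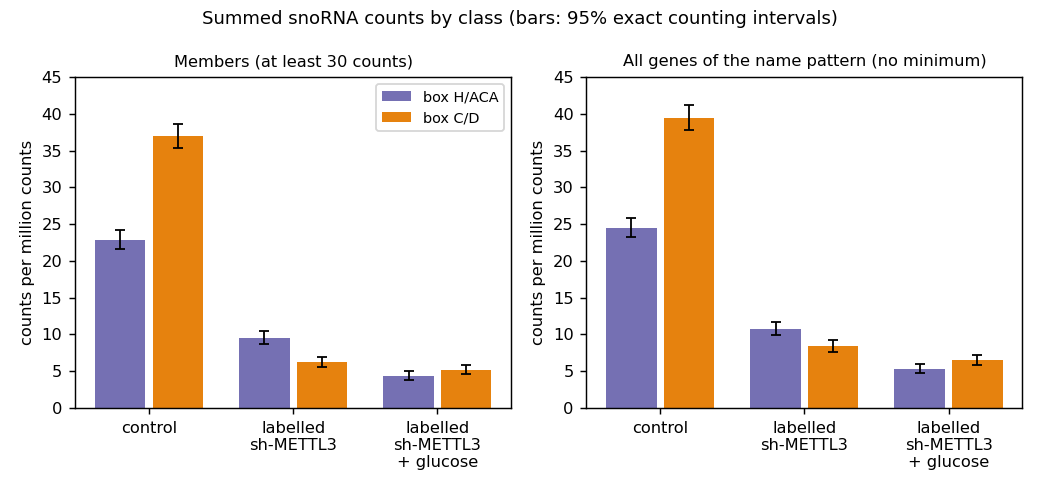
Counts of box H/ACA and box C/D genes per 1000000 counts in each of the 3 libraries, for the 34 members (left) and for all genes of the name pattern (right), with 95% exact counting intervals. The C/D bar of the members stands at 37.0 in the control, 6.19 in the sh-METTL3-labelled library and 5.17 in the glucose library, and the H/ACA bar at 22.9, 9.56 and 4.39.

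The order of the libraries also held without the count minimum. Over all 41 Snora genes, with no minimum, counts were 1331, 581 and 280, with ratios to the control of 0.442 (0.400 to 0.487) and 0.216 (0.189 to 0.246). Over all 76 Snord genes they were 2142, 449 and 343, with ratios of 0.212 (0.191 to 0.235) and 0.165 (0.146 to 0.185). The sums of the 83 genes under the minimum lay nearer to the control in the sh-METTL3-labelled library: their ratios were 0.773 (0.555 to 1.07) for 28 Snora genes and 0.877 (0.679 to 1.13) for 55 Snord genes. In the glucose library they were 0.554 (0.382 to 0.796) and 0.533 (0.394 to 0.717). Such small counts carry the authors' rounding. For every small single-exon RNA gene above 0, the deposited count equalled its FPKM times its length and a library constant, rounded up, so a count of 1 stood for a median of 0.0814, 0.0844 and 0.0635 before rounding. Without the rounding, the ratios of the genes under the minimum were 0.703 and 0.421 for Snora and 0.812 and 0.347 for Snord. The intervals treat deposited counts as reads.

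Gene by gene, 10 of 13 H/ACA members and 20 of 21 C/D members were at least 2-fold lower in the sh-METTL3-labelled library than in the control, against 14.2% of all genes, and 1 H/ACA member was higher, against 24.6%. In the glucose library 10 of 13 and 20 of 21 were lower and none higher, against 7.83% and 24.0%. Since the rule used these counts, nothing is read from the comparison with all genes. If the minimum is asked of the sh-METTL3-labelled libraries alone, 11 snoRNA genes pass, of which 9 and 10 were lower than in the control, and Snora47 was higher in the sh-METTL3-labelled library. Under the same minimum 11.7% and 5.33% of 16192 genes were lower. For glucose over the sh-METTL3-labelled library, 7 H/ACA and 5 C/D members were lower and 2 of each were higher, against 7.87% and 11.5% of all genes. Scaling by TMM (trimmed mean of M-values, which sizes libraries from the bulk of genes) moved the median log2 ratio of all genes by -0.19 and -0.24 relative to totals. It changed the part of called genes that were higher from 63.4% to 52.9% and from 75.4% to 60.9%. Relative to the median gene, the class ratios to the control were 0.364 and 0.158 for H/ACA and 0.146 and 0.115 for C/D.

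**Figure D2:**
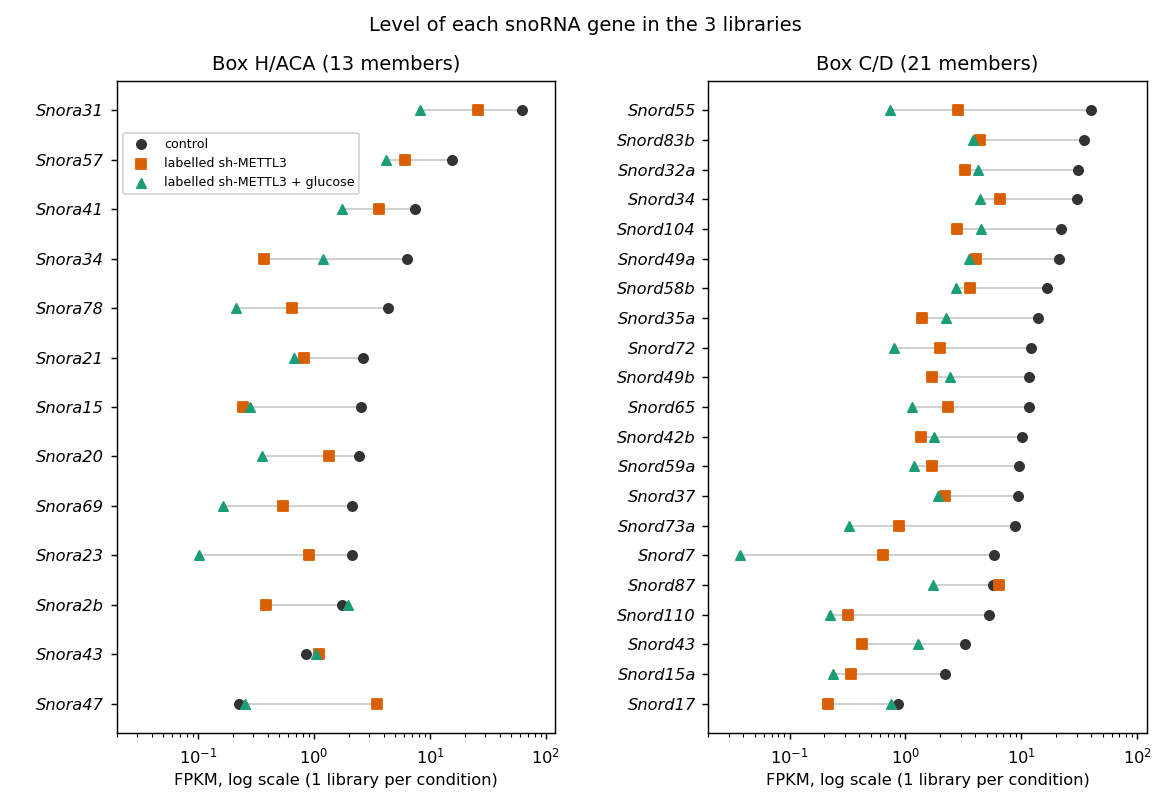
Level of each of the 34 snoRNA genes in FPKM on a log scale, 1 point per library, with box H/ACA on the left and box C/D on the right. The control point lies furthest right for most genes; Snora47, at 0.225, 3.46 and 0.252 FPKM, has its highest point in the sh-METTL3-labelled library.

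Among the box H/ACA genes, Snora31 was the most abundant per length. It lies in Tpt1, which encodes the translationally controlled tumour protein, at chr14:75847905-75848034 on the plus strand. Its level was 62.6 FPKM in the control, 25.8 in the sh-METTL3-labelled library and 8.24 in the glucose library, and its counts were 675, 280 and 88. The ratios to the control were 0.420 (0.364 to 0.483) and 0.134 (0.106 to 0.168), and the glucose library was below the sh-METTL3-labelled library at 0.319 (0.248 to 0.407). The control was the highest of the 3 libraries and the glucose library the lowest. Snora57, whose first bases are shown above, had the same order with 189, 75 and 51 counts and ratios of 0.401 (0.303 to 0.527) and 0.277 (0.199 to 0.380). Snora41, in the elongation factor gene Eef1b2, followed with 82, 40 and 19 counts and ratios of 0.494 (0.329 to 0.729) and 0.238 (0.137 to 0.396).

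Snora34 and Snora2b lie in 1 host, Kansl2, a subunit gene of the NSL histone acetyltransferase complex, and had another order. Snora34 had 74, 5 and 14 counts, a ratio of 0.0684 (0.0216 to 0.167) in the sh-METTL3-labelled library and of 0.194 (0.101 to 0.347) in the glucose library. Snora2b had 20, 5 and 22 counts, with ratios of 0.253 (0.0742 to 0.694) and 1.13 (0.589 to 2.18). In both genes the sh-METTL3-labelled library was the lowest, as it was for 11 of all 34 members, 3 of them H/ACA. Summed over the pair, glucose over the sh-METTL3-labelled library had a ratio of 3.66 (1.78 to 8.26), whereas Kansl2 itself had one of 1.12. The summed ratio rests on 36 counts over 10. The Snora34 counts may include RNA of the Mir1291 locus, which the table cannot separate.

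The remaining H/ACA genes were scarcer. Snora78, inside the noncoding gene Snhg9, had 47, 7 and 3 counts. Snora23, inside the nuclear import receptor gene Ipo7, had 33, 14 and 2. Snora21, inside Rpl23, had 31, 10 and 8. All 3 had intervals below 1 in both comparisons with the control, and Snora23 was also lower in glucose than in the sh-METTL3-labelled library, at 0.145 (0.0160 to 0.632). To account for the other members, Snora20, Snora15 and Snora69 were below the control in both libraries, with ratios from 0.0857 to 0.584, although the interval of Snora20 in the sh-METTL3-labelled library (0.287 to 1.14) held 1.

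Snora43 and Snora47 did not share that pattern; both are named after their values were seen. Snora43, inside Snhg7, had 10, 13 and 12 counts and ratios of 1.32 (0.533 to 3.35) and 1.23 (0.488 to 3.19), a span in which no difference was detectable. A second entry named Snora43 had 1, 1 and 2 counts, under the minimum. Snora47 had 3, 40 and 3 counts, with a ratio of 13.5 (4.30 to 68.2) in the sh-METTL3-labelled library and 1.03 (0.138 to 7.67) in the glucose library. Its host Zbed3, a zinc finger gene, was itself higher there, with 1445, 2442 and 1279 counts and ratios of 1.71 and 0.910. It was the sole member at least 2-fold higher than the control.

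Among the box C/D genes, the control was highest in 20 of 21, an outcome that the rule favours because it leans on the control. Snord83b, inside Rpl3, had 34.9, 4.43 and 3.84 FPKM from 273, 35 and 30 counts, with ratios of 0.130 (0.0885 to 0.185) and 0.113 (0.0748 to 0.165). Snord55 had 39.7, 2.86 and 0.735 FPKM from 260, 19 and 5 counts. Its ratios were 0.0739 (0.0438 to 0.118) and 0.0198 (0.00637 to 0.0467), the latter the lowest of the 34 genes. Snord55 was the C/D gene with the highest level in the control and one of 2 C/D genes with an interval below 1 for glucose over the sh-METTL3-labelled library, at 0.267 (0.0780 to 0.740). The other was Snord87.

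Rpl13a carries 4 box C/D genes that have been linked to the response of rodent cells to lipid and oxidative stress, and 3 of them were members. Snord32a had 213, 23 and 29 counts, Snord34 had 176, 38 and 26, and Snord35a had 105, 11 and 17. The fourth, Snord33, was listed with 1 count in each library, values that were under 0.05 before rounding. The 3 members sum to 494, 72 and 72 counts, with ratios of 0.147 (0.114 to 0.189) and 0.150 (0.115 to 0.192), and the glucose library stood beside the sh-METTL3-labelled library at 1.02 (0.723 to 1.43). Their host was also lower, by less: Rpl13a had 90353, 42183 and 42824 counts, with ratios of 0.472 and 0.487.

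The noncoding gene 2410006H16Rik holds Snord49a, Snord49b and Snord65. Snord49a had 126, 25 and 21 counts with ratios of 0.201 (0.125 to 0.310) and 0.171 (0.102 to 0.273), and the 3 genes together had 266, 50 and 43 counts, with intervals of 0.138 to 0.258 and 0.117 to 0.230. The host had 16854, 3400 and 6543 counts and a ratio of 0.204 in the sh-METTL3-labelled library, inside the interval of its snoRNAs, and of 0.399 in the glucose library, above it. Snord104, which lies in Gm36220, had 129, 17 and 26 counts and ratios of 0.133 (0.0753 to 0.222) and 0.207 (0.130 to 0.318). Snord58b, inside Rpl17, had 91, 20 and 15 counts, and Snord72, inside Rpl37, had 82, 14 and 6. Both kept the order of Snord83b.

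Snord87, inside the noncoding gene Snhg6, was the C/D gene that stood apart. It had 41, 47 and 13 counts, with a ratio of 1.16 (0.747 to 1.81) in the sh-METTL3-labelled library and 0.326 (0.160 to 0.620) in the glucose library. Snhg6 itself had 2475, 870 and 845 counts, ratios of 0.356 and 0.351. The snoRNA gene and its host thus differed in the sh-METTL3-labelled library and overlapped in the glucose library. To complete the class, Snord59a, Snord42b, Snord37, Snord73a, Snord7, Snord43, Snord15a and Snord110 had ratios of 0.0674 to 0.243 in the sh-METTL3-labelled library. In the glucose library they ran from 0.0219 to 0.425. The deposited annotation types Snord43, 108 bases long there, as a miRNA, and its RefSeq gene spans chr15:80082859-80082906. Snord17 had 17, 5 and 15 counts, and its glucose interval (0.422 to 1.93) held 1. Paralogous snoRNA genes can share reads where their sequences are alike, which was not checked here, and the sources used here do not give how the authors assigned such reads.

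The rule set the edge among scarce genes. Just inside it stood Snord110 with a sum of 34 and Snora69 with 32, and just outside Snord89 with 29 and Snora62 with 28. Most snoRNAs that act in precursor cleavage rather than modification fell below it. Snora73a and Snora73b, which are needed for early cleavage toward 18S, had sums of 11 and 10, Snord118 (U8) had 2 and Snord22 had 6. The 4 genes of the name pattern inside Gas5, a noncoding host with 41725, 10011 and 13790 counts, each had a sum of at most 3. U3, the box C/D snoRNA of the first cleavage steps, is named Rnu3 in the table and so was outside the rule. Of its genes 5 reached the minimum, near-identical copies that can share reads, and all 5 were lower than the control, with ratios of 0.0482 to 0.0899 in the sh-METTL3-labelled library and 0.0133 to 0.0734 in the glucose library.

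Host genes were a readout the rule did not use. All 34 members overlapped the RefSeq gene of their symbol, and 31 lay in a host with values in the table, 25 distinct genes in all. Of these 10 encode ribosomal proteins, and they hold 2 H/ACA and 11 C/D members. Hosts were lower too: 23 of 25 had a ratio below 1 in the sh-METTL3-labelled library and 24 in the glucose library, and 13 and 6 were below 0.5. Of the 17097 genes tested, 7226 and 6370 had a ratio below 1, and 14.2% and 7.83% were at least 2-fold lower. The snoRNA gene lay further below the control than its host in 28 of 31 pairs and 29 of 31 pairs, and its whole interval lay below the host's ratio in 18 and 24. The median ratio over the 31 members was 0.185 against 0.472 for their hosts in the sh-METTL3-labelled library, and 0.152 against 0.577 in the glucose library. Because the members were kept by counts that lean on the control, the rule bears on the members' side of this comparison. It favours members that are high in the control, so no result is read from the pairs. Snora47 and Snord87 were the 2 members whose interval lay above the host's ratio in the sh-METTL3-labelled library, and in the glucose library there were 0.

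**Figure D3:**
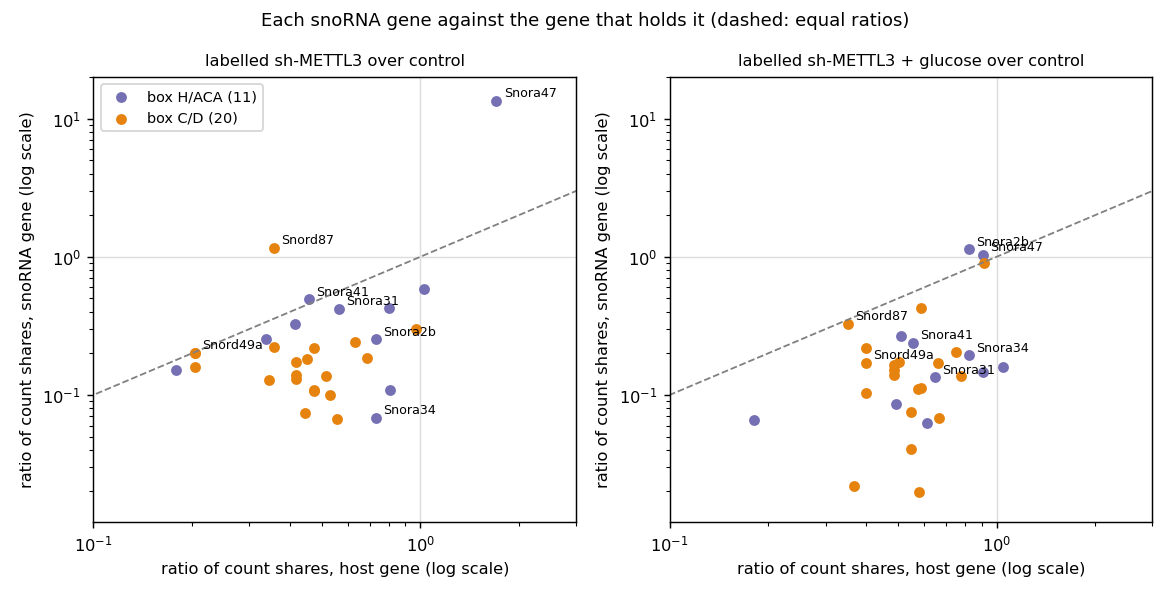
Ratio of count shares to the control for each snoRNA gene (vertical) against that of its host gene (horizontal), both on log scales, for the sh-METTL3-labelled library (left) and the glucose library (right). Points under the dashed line are snoRNA genes further below the control than their host, 28 of 31 on the left and 29 of 31 on the right.

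Starts of several hosts are shown because genes of ribosomal proteins and many snoRNA hosts begin with a C followed by pyrimidines, the 5' terminal oligopyrimidine form that couples translation to growth signals. The motif searched was a C at the annotated start followed by at least 3 letters C or T, on the transcribed strand. RefSeq promoters were found for 23 host genes, and 5 of them, 21.7%, held it at an annotated start, against 4.49% of all 27025 genes with a promoter and 3.76% of all 32851 promoters. The lines run from 10 bases before the start to base 50, with the run in capitals.
Snhg7, host of Snora43 (chr2:26640195-26640254, minus strand): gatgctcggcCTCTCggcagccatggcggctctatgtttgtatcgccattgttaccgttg
Gm36220, host of Snord104 (chr11:106500905-106500964, plus strand): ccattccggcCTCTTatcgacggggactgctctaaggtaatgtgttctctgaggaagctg
5730408K05Rik, host of Snora57 (chr19:8888721-8888780, minus strand): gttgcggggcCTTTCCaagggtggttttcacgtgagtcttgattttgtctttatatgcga
2410006H16Rik, host of Snord49a, Snord49b and Snord65 (chr11:62602867-62602926, plus strand): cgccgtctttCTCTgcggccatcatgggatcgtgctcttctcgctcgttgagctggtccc
Ipo7, host of Snora23 (chr7:110018305-110018364, plus strand): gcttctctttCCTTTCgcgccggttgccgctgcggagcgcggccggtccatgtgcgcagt
The match depends on the exact base annotated as the start. Of the 6 ribosomal protein hosts with a RefSeq promoter, 0 matched at their annotated start. The line of Rpl13a is shown as an example of a host without a match.
Rpl13a, host of Snord32a, Snord34 and Snord35a (chr7:45128696-45128755, minus strand): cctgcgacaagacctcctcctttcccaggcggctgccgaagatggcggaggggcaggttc

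The proteins that snoRNAs work with had ratios on both sides of 1. Over all genes, 14.2% were lower and 24.6% higher in the sh-METTL3-labelled library, and 7.83% and 24.0% in the glucose library. With so few genes per list, nothing is read from the numbers called below. Of the 6 listed H/ACA core proteins and assembly factors none was lower in either sh-METTL3-labelled library. Dkc1, the pseudouridine synthase dyskerin, had ratios of 1.84 and 1.82, and its assembly chaperone Shq1, the 1 member that was higher, had 2.97 and 2.91. Nop10, a small core subunit, had 0.525 and 0.632. None of the 4 C/D core proteins was called, and they ran from Nop56 at 0.558 and 0.666, itself a snoRNA host, to Nop58 at 1.19 and 1.21. Of 7 assembly factors of box C/D particles, Nufip1 was lower in the sh-METTL3-labelled library at 0.433 and Znhit6 was higher at 2.38 and 2.41. Of 14 tested genes of the exosome and of tail trimming, which finish snoRNA ends, Toe1, a deadenylase of small nuclear RNAs, was higher at 6.35 and 4.72 and the other 13 were not called.

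Other RNAs that lack a regular poly(A) tail moved in the same direction as the snoRNA genes. In the list of such RNAs 6 of 6 tested genes were lower in both libraries, against 14.2% and 7.83% of all genes, the shares that also stand beside the counts that follow. Rmrp, the RNA of RNase MRP, had 551, 5 and 16 counts, and Rn7sk, which holds the elongation factor P-TEFb inactive, had 5080, 153 and 177. All 14 tested genes of type snRNA were lower, with median ratios of 0.0649 and 0.0664. Of 44 other genes of type snoRNA, 26 were lower in the sh-METTL3-labelled library and 33 in the glucose library, with medians of 0.378 and 0.293; the U3 genes are among them. Scarna2 and Scarna8, guide RNAs of Cajal bodies and the 2 of 9 such genes that reached the minimum, were lower in both. The minimum leans on the control for these genes as well.

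Short genes and noncoding hosts shared that direction. Of 239 other genes spanning at most 250 bases, 48.5% and 49.0% were lower, against 14.2% and 7.83% of all genes. Among noncoding snoRNA host RNAs, 13 of 16 and 12 of 16 were lower, with ratios of 0.0927 (Snhg12) to 1.09 (an Snhg4 row) in the sh-METTL3-labelled library and of 0.177 (the other Snhg4 row) to 0.867 in the glucose library. Zfas1 had 14336, 1997 and 5455 counts. The gene with the largest share of any library, CT010467, where RefSeq has Rn18s-rs5, a copy of 18S ribosomal RNA, stood at 2.29% of all counts in the control and at 0.0834% and 0.0926% in the other libraries. The part of RNA makeup in the snoRNA result was not tested, and with 1 library per condition makeup and condition cannot be told apart. In RNA from whole cultures, fewer molecules per cell and a smaller part of cells with the RNA cannot be told apart either.

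**Figure D4:**
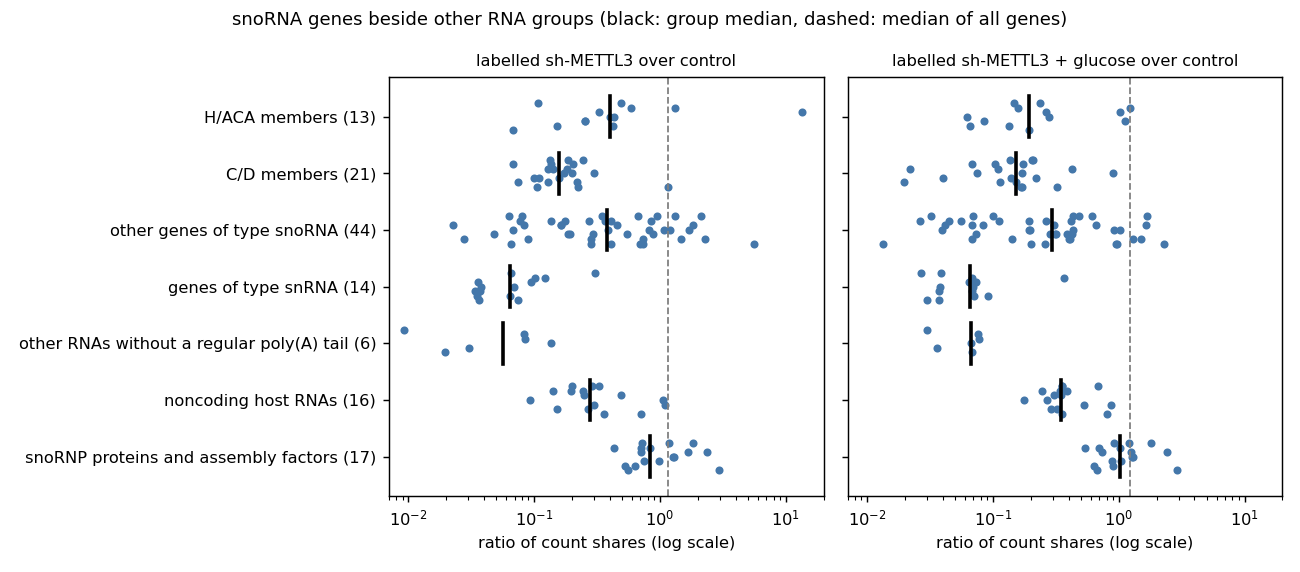
Ratios of count shares to the control on a log scale, 1 point per gene, for snoRNA members and other RNA groups, with the number of genes in parentheses, the group median in black and the median of all genes dashed. Medians for genes of type snRNA (0.0649 and 0.0664) lie left of those of the C/D members (0.159 and 0.152), and the proteins scatter around the dashed line.

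Length and class go together in these genes. The H/ACA members span 128 to 184 bases with a median of 137, and the C/D members 64 to 238 with a median of 74. Across the 34 members, Spearman's correlation of length and ratio was 0.44 in the sh-METTL3-labelled library and 0.28 in the glucose library. Within the 21 C/D members it was -0.0085 and 0.066, and within the 13 H/ACA members 0.23 and 0.42. All points share the same 2 libraries, and these correlations are descriptions. The 4 C/D members of at least 97 bases had a summed ratio of 0.167 (0.0986 to 0.270) in the sh-METTL3-labelled library, the same value as the 17 shorter ones at 0.167 (0.148 to 0.189). In the glucose library they stood at 0.263 (0.171 to 0.393) against 0.132 (0.115 to 0.151). The 4 were split there, with Snord17 and Snord43 at 0.907 and 0.425 and Snord15a and Snord7 at 0.110 and 0.0219. The longer genes rest on 20 and 31 counts in these libraries, and the part of length in the class difference was not tested.

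**Figure D5:**
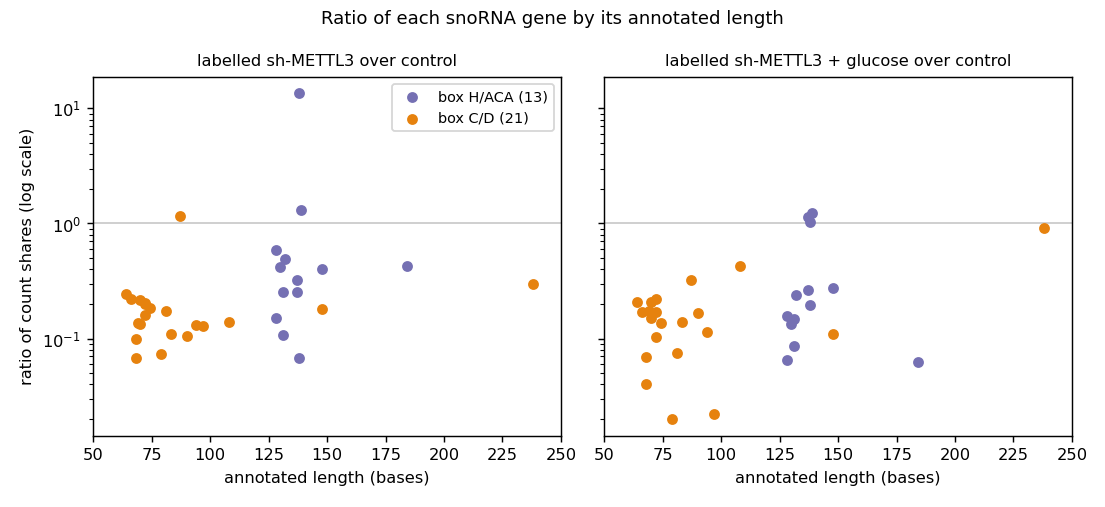
Ratio of count shares to the control (log scale) against annotated length in bases for the 34 members, coloured by class. The classes differ in length but overlap. Of 21 C/D members 18 are under 100 bases and 2 reach the length of the shortest H/ACA member. All 13 H/ACA members have 128 bases or more.

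m6A peaks gave a second readout that the rule did not use, from the authors' lists, 1 per condition, of 22498 peaks for the control, 24626 for the condition labelled sh-METTL3 and 27480 for that with glucose. None of the lists named a peak for any of the 34 genes. In the glucose list 2 peaks of host messages overlapped a member on its strand. A peak annotated to the 3' untranslated region of Tpt1 (chr14:75847311-75848228) spanned Snora31, with the authors' fold enrichment of 1.24 and an adjusted p in the authors' deposited table of 3.16e-30. A peak annotated to the 5' untranslated region of Rpl23a (chr11:78183026-78183584) overlapped Snord42b, with the authors' fold of 2.25 and an adjusted p in the deposited table of 0.000214. Fragments of the host and of the snoRNA cannot be told apart in these spans.

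Outside the members, the control list named a peak for Snord118 and the glucose list one for Snord123, with adjusted p of 0.159 and 0.412 in the authors' deposited table. Of the 25 hosts, 13 had at least 1 peak in the control list and 12 in the list of the condition labelled sh-METTL3. In the glucose list, which is also the longest, 20 had one. The share of all genes with a peak is not given here, so nothing is read from these host counts. In the differential lists a peak of 1810009A15Rik, on the strand opposite Snora57, was the single overlap with a member.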

How the data were processed

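RNA of 15 MPC5 samples was selected on oligo(dT), fragmented and, for the pull-down samples, enriched with an m6A antibody, per the labels' protocols. The submitters' processing notes list HOMER 4.10, edgeR 4.1, StringTie 2.1.2, HISAT2 2.0.4 and fastp 0.19.4, with no steps, and the build GRCh38 although the cells are mouse. The 34 snoRNA genes overlapped the genes of their symbols in RefSeq GRCm38.p6, so coordinates are given as GRCm38. The deposited expression table holds, per the file headers, FPKM and counts, 1 column of each per condition. For small single-exon RNA genes, the ones checked, the deposited counts equal FPKM times length and a constant, rounded up (tolerance 0.02). In the deposited peak lists the fold enrichment is a ratio and the log10 adjusted p a score; the deposited differential lists carry a log2 fold change, a p-value and its adjusted value. Unused per-sample columns numbered 0.

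Ratios, intervals, host overlaps and peak overlaps (at least 1 base) were computed with Python 3.11.15, pandas 2.3.3 and scipy 1.17.1. TMM sizes came from edgeR 4.0.16 in R 4.3.3. The ratio, its interval and the 2-fold call were tested on simulated counts, which did not carry the authors' rounding. Overlaps and library sizes were not tested in this way. No test between conditions was run. Members and gene lists were chosen with earlier results of these data known. The naming rule takes the 8 members per class with the most counts, up to 4 highest and 4 lowest ratios per class among members with at least 100 counts, those in Rpl13a or Gas5, the precursor cleavage group, and the highest and lowest of each list. Other members are named to account for all, and other list genes were chosen after their values were seen. Leukocyte, endothelial and mesangial markers had 3, 1 and 2 genes at the minimum, of which 2, 0 and 1 were higher in the sh-METTL3-labelled library. In the glucose library 3, 0 and 1 were higher, and the shares of all genes were 24.6% and 24.0%. The other mesangial marker, Des, was lower in the sh-METTL3-labelled library at 0.389. The spliceosomal list, taken by name, had 6, of which 5 are U3 genes. Alternatives were TMM and median-of-ratios sizes, totals without CT010467, summed FPKM, minima of 10 and 100, FPKM + 1, and leaving out the largest member. Counts before rounding, no minimum, the minimum without the control and leaving out Snord87 were added after the data were seen. A few named items are not reported here.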

Additional observations from a re-analysis of the deposited data

How the results depend on the processing

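No paired analysis was possible because the expression table holds 1 column per condition, which also bars leaving out a replicate. No class ratio crossed 1 under any alternative run, and 81 of 117 values stayed within the counting interval or within 1.5 times the count. Below, "pair 1" is the sh-METTL3-labelled library over control, "pair 2" glucose over control and "pair 3" glucose over the sh-METTL3-labelled library. With TMM and median-of-ratios sizes the H/ACA ratio was 0.366 and 0.364 for pair 1 and 0.162 and 0.161 for pair 2, and the C/D ratio 0.146 and 0.146, then for pair 2 0.118 and 0.117. Without Snora31 the H/ACA ratio was 0.261 for pair 2 and 0.628 for pair 3. The C/D ratio was 0.194 for pair 1 with a minimum of 10, and 0.212 and 0.165 for pairs 1 and 2 with none. With a minimum of 100, lower H/ACA members numbered 3, 3 and 2 and lower C/D members 9, 10 and 3, because fewer genes were left. For pair 3, FPKM + 1 gave 2 lower H/ACA and 2 lower C/D members, and a minimum of 10 gave 8 lower C/D members. Over all genes, FPKM + 1 gave 983 lower and 1378 higher for pair 1, 476 and 981 for pair 2, and 224 and 353 for pair 3. For pair 2, genes at least 2-fold lower numbered 2015 with TMM, 2084 with median-of-ratios, 2019 with a minimum of 10 and 790 with 100, against 1339. For pair 3 they numbered 2035 with a minimum of 10 and 822 with 100, against 1346, and 1234 were higher with 100, against 1962. Apart from the loss of genes under a minimum of 100, the cause was not tested. For pair 3, 24 of 34 members had a counting interval that held 1, and the C/D ratio without Snord87 was 0.147 for pair 1 and 0.927 for pair 3.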
